A study of Bos taurus with 6 samples.

Results

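Sirtuins and BET proteins handle acetylated lysine from opposite sides. Sirtuins are enzymes that remove acetyl and related acyl groups from lysine and consume NAD+ each time they do so, whereas BET proteins such as BRD2 and BRD3 carry bromodomains that bind acetylated histone tails and bring elongation factors to genes. Butyrate, a short-chain fatty acid made by rumen microbes, is known as an inhibitor of the zinc-dependent histone deacetylases, a class that does not include the NAD-dependent sirtuins. The 9 genes described here are the 7 sirtuin genes, SIRT1 to SIRT7, with BRD2 and BRD3. They were picked by gene name among the 32183 genes listed for each culture, and each name was found on 1 row. Other BET genes were not analysed here.

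RNA was sequenced from rumen epithelial primary cells (REPC), which were grown from the rumen lining of a 2-week-old Holstein bull calf raised on milk replacer. The butyrate group was 3 cultures kept for 24 h with 5 mM butyrate in the medium, and the control group was 3 cultures without it, so that the groups were compared to see which genes butyrate moves. All cells came from 1 calf, and the p-values therefore measure the spread between cultures of the cells of that animal. Values are FPKM, fragment numbers scaled to transcript length and to the mapped fragments of the library, as computed by the authors for each culture.

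Summed FPKM per culture ranged from 678035 to 681912 among controls and from 619401 to 629037 among butyrate cultures. Epithelial genes were plainly expressed, with keratin gene KRT17 at a mean FPKM of 3858 in control and the epithelial cadherin gene CDH1 at 49.8, while EPCAM was at 0.540. Some markers of fibroblasts and smooth muscle were high in control as well, such as COL1A1 at 1149, VIM at 2464 and ACTA2 at 2752. Others on the same lists were low, such as PDGFRA at 0.306, LUM at 0.149 and MYH11 at 0.662. Markers of endothelium and leukocytes were low. The 15 epithelial markers together had an FPKM of 6286 to 6571 in control and 9086 to 9403 after butyrate, with 9 called higher and 2 lower, where a gene is called when limma gave it a Benjamini-Hochberg adjusted p under 0.05. The 11 fibroblast markers summed to 5600 to 5760 in control and 8005 to 8482 after butyrate, and all 9 of them that were tested were called higher. The 5 smooth muscle markers summed to 6468 to 6796 in control and 2849 to 3456 after butyrate, with 4 called lower and 1 higher. The 5 endothelial markers summed to 1.95 to 2.07 in control and 6.53 to 8.47 after butyrate, with both tested markers called higher, and CDH5 was listed at 0 in every culture. The 6 leukocyte markers summed to 5.20 to 7.15 in control and 7.70 to 9.50 after butyrate, with 1 of 2 tested markers called higher, and PTPRC was listed at 0 in every culture. Beside these marker counts, 32.5% of all genes tested were called higher and 25.9% lower. The part of these marker changes in the results below was not tested, and in bulk RNA fewer cells of a type and less RNA per cell cannot be told apart.

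Butyrate moved the 9 genes in both directions. BRD2 and SIRT1 fell, SIRT6, SIRT3, BRD3 and SIRT2 rose, and SIRT4, SIRT5 and SIRT7 did not pass the test (limma, Benjamini-Hochberg adjusted p under 0.05). All 9 genes exceeded the minimum mean FPKM of 0.1 and were tested. Thus 4 of the 9 were called higher, which is 44.4%, against 32.5% of the 15813 genes tested, and 2 were called lower, which is 22.2%, against 25.9% of all genes. In either direction 66.7% of the 9 genes were called, against 58.4% of all genes, so the number called was near the background of a culture system in which most genes moved. In the same 6 genes the 3 butyrate values lay entirely above (4 genes) or below (2 genes) the 3 control values, which held for 65.0% of all genes tested, of which 36.1% were above and 28.9% below. The study defined a differentially expressed gene by a Bonferroni-corrected p under 0.05 with a log2 fold change beyond 2. None of the 9 genes passed these thresholds when they were applied to the limma test, which 3.97% of all genes passed. The study applied them to its own Cufflinks analysis, so this share is not the one it found. With the Bonferroni correction and no minimum fold change, BRD2 passed (limma, Bonferroni-adjusted p = 0.000431), as did 12.8% of all genes, and the other 8 did not. The median log2 fold change of all genes tested was 0.10, and that of the 9 genes was 0.17.

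**Figure D1:**
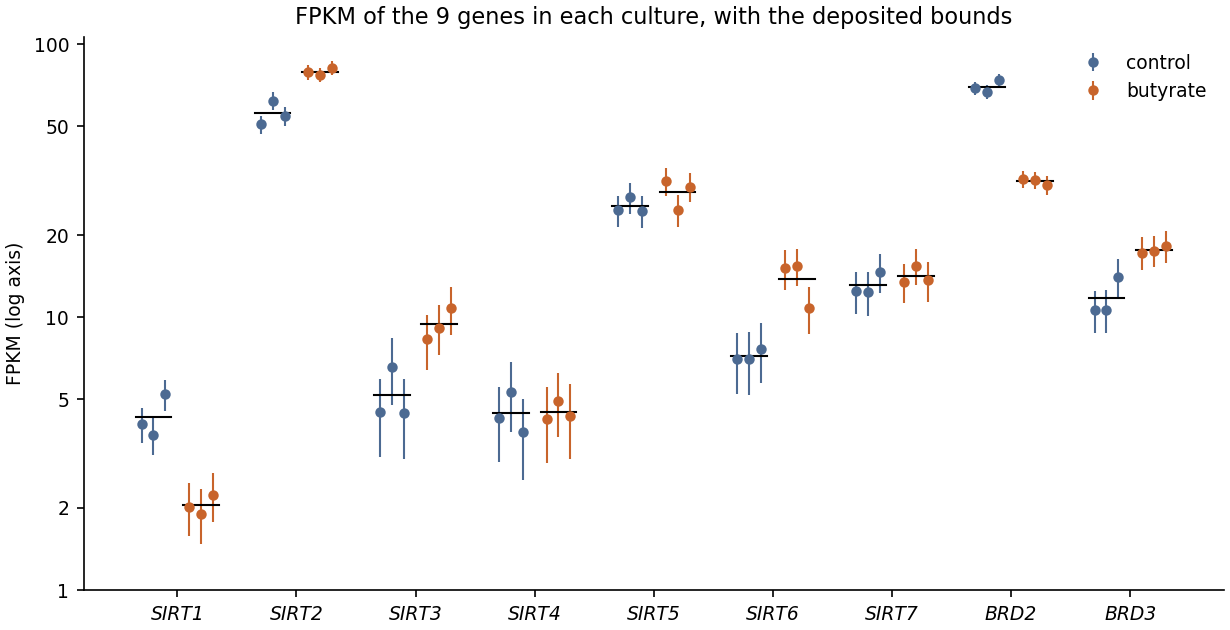
FPKM on a log axis of the 7 sirtuin genes, BRD2 and BRD3 in each of 3 control and 3 butyrate cultures, with the confidence bounds deposited for each value as error bars and the group mean as a black line. The values of the groups are apart in SIRT1, SIRT2, SIRT3, SIRT6, BRD2 and BRD3 and overlap in SIRT4, SIRT5 and SIRT7. In SIRT3, SIRT6 and BRD3 some of the bounds cross between groups.

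BRD2, a BET reader that binds acetylated histone H4, lies on chromosome 23 from 7236019 to 7247851. Control replicates 1 to 3 had FPKM values of 69.0, 67.0 and 73.9, and the butyrate replicates, in the same order, had 32.0, 31.7 and 30.5. The 6 values formed 2 tight groups that were far apart. The means were 70.0 ± 3.56 (SD, n = 3) in control and 31.4 ± 0.808 (SD, n = 3) after butyrate. BRD2 fell by 1.15 on the log2 scale (limma, SE 0.06, Benjamini-Hochberg adjusted p = 8.58e-07), which is 2.22-fold lower with a 95% interval of 2.02 to 2.44. The size of this change was larger than that of 75.5% of all genes tested. In control BRD2 had the highest level of the 9 genes.

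BRD3, the other BET reader, is known for binding acetylated GATA1 in blood cells and lies on chromosome 11 from 104860017 to 104892030. Its FPKM was 10.6, 10.7 and 14.1 in control and 17.2, 17.5 and 18.2 after butyrate. Control replicate 3 stood above the other controls and still below every butyrate culture. Its deposited bounds of 11.9 to 16.3 crossed those of each butyrate culture, so that 6 of the 9 pairings had separate bounds. The mean went from 11.8 ± 2.0 (SD, n = 3) to 17.7 ± 0.515 (SD, n = 3). BRD3 rose by 0.59 on the log2 scale (limma, SE 0.12, Benjamini-Hochberg adjusted p = 0.00248), a 1.51-fold rise with a 95% interval of 1.25 to 1.82.

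The 2 BET genes thus moved in opposite directions, and their ratio was compared within cultures, where any scaling between libraries cancels. BRD2 had 6.51, 6.29 and 5.25 times the FPKM of BRD3 in control and 1.86, 1.82 and 1.67 times its FPKM after butyrate. The log2 ratio fell by 1.74, and every butyrate culture lay below every control culture (two-sided exact permutation test, p = 0.1, which is as small as 3 values against 3 can give, and 0.2 after Benjamini-Hochberg adjustment over 4 pairs). BRD3 supplied 14.3% ± 1.45 (SD, n = 3) of the summed FPKM of the pair in control and 36.0% ± 1.27 (SD, n = 3) after butyrate. The sum of both genes was 81.7 ± 5.50 (SD, n = 3) in control and 49.1 ± 0.297 (SD, n = 3) after butyrate, so the higher BRD3 level covered a small part of the lower BRD2 level.

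**Figure D2:**
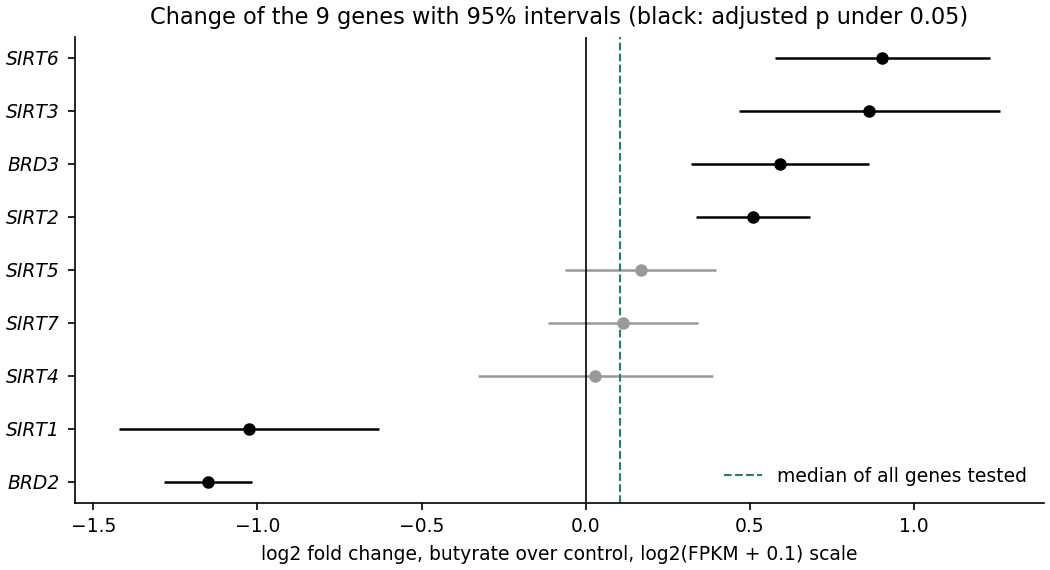
Log2 fold change of butyrate over control on the log2(FPKM + 0.1) scale for the 9 genes, with 95% intervals from limma, in black where the adjusted p was under 0.05 and grey where it was not. The intervals of BRD2 and SIRT1 lie below 0, those of SIRT6, SIRT3, BRD3 and SIRT2 above 0, and the dashed line marks the median of all genes tested, 0.10.

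Among the sirtuins of the nucleus, SIRT1 and SIRT6 went in opposite directions and SIRT7 did not pass the test. SIRT1 removes acetyl groups from histones and from transcription factors such as the FOXO proteins, and lies on chromosome 28 from 24556239 to 24582756. Its FPKM was 4.05, 3.69 and 5.21 in control and 2.02, 1.91 and 2.23 after butyrate. No butyrate culture reached the lowest control, and the confidence bounds deposited with the values separated all 9 pairings of a control with a butyrate culture. SIRT1 fell by 1.03 on the log2 scale (limma, SE 0.17, Benjamini-Hochberg adjusted p = 0.000987), which is 2.04-fold lower with a 95% interval of 1.55 to 2.68. It went from a mean of 4.32 ± 0.794 (SD, n = 3), above 46.3% of all genes tested, to 2.05 ± 0.163 (SD, n = 3), above 32.6%.

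SIRT6, a chromatin-bound deacetylase of histone H3 with roles in DNA repair and in the control of glycolytic genes, lies on chromosome 7 from 21079092 to 21087378. Its FPKM was 7.0, 7.01 and 7.62 in control and 15.1, 15.4 and 10.8 after butyrate. Butyrate replicate 3 was lower than the other butyrate cultures, and its deposited bounds of 8.65 to 12.9 crossed those of each control, so that 6 of the 9 pairings had separate bounds. SIRT6 rose by 0.90 on the log2 scale (limma, SE 0.14, Benjamini-Hochberg adjusted p = 0.000677), a 1.87-fold rise with a 95% interval of 1.49 to 2.35, from a mean of 7.21 ± 0.353 (SD, n = 3) to 13.7 ± 2.59 (SD, n = 3). Its log2 fold change was the highest of the 9 genes as reported, and close to that of SIRT3.

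SIRT7, a sirtuin of the nucleolus that acts on histone H3 and on ribosomal DNA transcription, lies on chromosome 19 from 51585565 to 51591804. Its FPKM was 12.5, 12.3 and 14.6 in control and 13.5, 15.4 and 13.7 after butyrate. The groups overlapped. The log2 difference was 0.11 with a 95% interval from -0.12 to 0.34 (limma, Benjamini-Hochberg adjusted p = 0.357), which includes the median change of all genes. SIRT6 had 0.562, 0.569 and 0.521 times the FPKM of SIRT7 in control and 1.12, 0.994 and 0.786 times its FPKM after butyrate. This log2 ratio rose by 0.79, with every butyrate culture above every control (two-sided exact permutation test, p = 0.1, the smallest possible, 0.2 after adjustment over 4 pairs).

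SIRT2 is the main cytosolic sirtuin and is known as a deacetylase of alpha-tubulin. It lies on chromosome 18 from 48860729 to 48880567 and had an FPKM of 50.8, 62.1 and 54.6 in control and 78.9, 77.0 and 81.9 after butyrate. The groups were apart, and all 9 pairings of a control with a butyrate culture had separate deposited bounds. SIRT2 rose by 0.51 on the log2 scale (limma, SE 0.08, Benjamini-Hochberg adjusted p = 0.000455), a 1.42-fold rise with a 95% interval of 1.26 to 1.60. It was by far the most abundant sirtuin transcript per length, and supplied 48.2% ± 1.47 (SD, n = 3) of the summed sirtuin FPKM in control and 52.1% ± 0.972 (SD, n = 3) after butyrate.

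Of the mitochondrial sirtuins, SIRT3 rose and SIRT4 and SIRT5 did not pass the test. SIRT3, the principal deacetylase of the mitochondrial matrix, lies on chromosome 11 from 107167125 to 107189769. Its FPKM was 4.50, 6.57 and 4.47 in control and 8.30, 9.16 and 10.8 after butyrate. Every butyrate culture exceeded every control, and 7 of the 9 pairings had separate deposited bounds. SIRT3 rose by 0.86 on the log2 scale (limma, SE 0.17, Benjamini-Hochberg adjusted p = 0.00259), a 1.82-fold rise with a 95% interval of 1.38 to 2.40.

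SIRT4, a mitochondrial sirtuin with ADP-ribosyltransferase and lipoamidase activity toward glutamate and pyruvate dehydrogenase, lies on chromosome 17 from 64875235 to 64892879. Its FPKM was 4.26, 5.31 and 3.78 in control and 4.24, 4.94 and 4.34 after butyrate, so the butyrate values lay within the range of the controls. The log2 difference of 0.03 had a 95% interval from -0.33 to 0.39 (limma, Benjamini-Hochberg adjusted p = 0.887), and its sign changed with quantile normalization or median of ratios scaling. Its deposited bounds were wide, from 26.6% to 33.1% of the value to either side.

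SIRT5 removes succinyl, malonyl and glutaryl groups rather than acetyl groups, and lies on chromosome 23 from 42803985 to 42826920. Its FPKM was 24.6, 27.5 and 24.5 in control and 31.6, 24.8 and 30.1 after butyrate. Butyrate replicate 2 fell among the controls and the other butyrate cultures lay above them. The log2 difference was 0.17 with a 95% interval from -0.06 to 0.40 (limma, Benjamini-Hochberg adjusted p = 0.186). It passed the threshold at 0.29 when each culture was rescaled to the same total (adjusted p = 0.0352 by limma) and at 0.27 without butyrate replicate 2 (adjusted p = 0.0247 by limma).

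**Figure D3:**
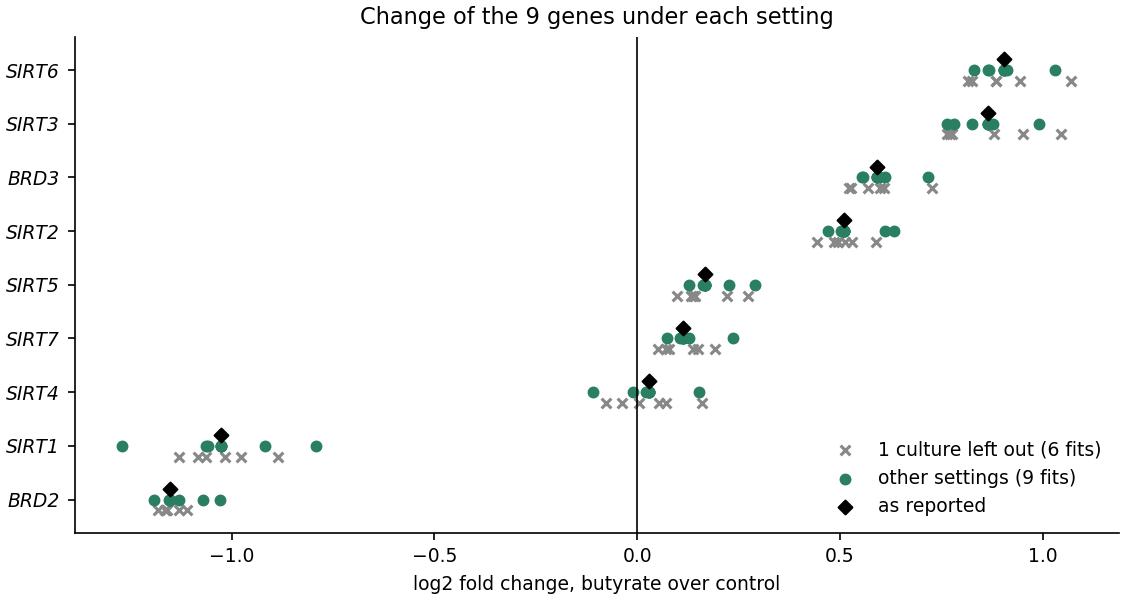
Log2 fold change of butyrate over control for each of the 9 genes, as reported (black), with 1 culture left out (grey, 6 fits) and under 9 other settings of pseudocount, filter, scaling, trend and replicate block (green). SIRT4 is the gene whose points lie on both sides of 0, and those of the 6 called genes keep their side.

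The ratios of the other pairs were less distinct. SIRT2 had 11.3, 9.46 and 12.2 times the FPKM of SIRT3 in control and 9.51, 8.42 and 7.59 times its FPKM after butyrate. The ranges overlapped slightly and the log2 ratio differed by -0.36 (two-sided exact permutation test, p = 0.2, 0.267 after adjustment over 4 pairs). For SIRT4 over SIRT5 the log2 ratio differed by -0.14 (two-sided exact permutation test, p = 0.6, and 0.6 after adjustment).

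**Figure D4:**
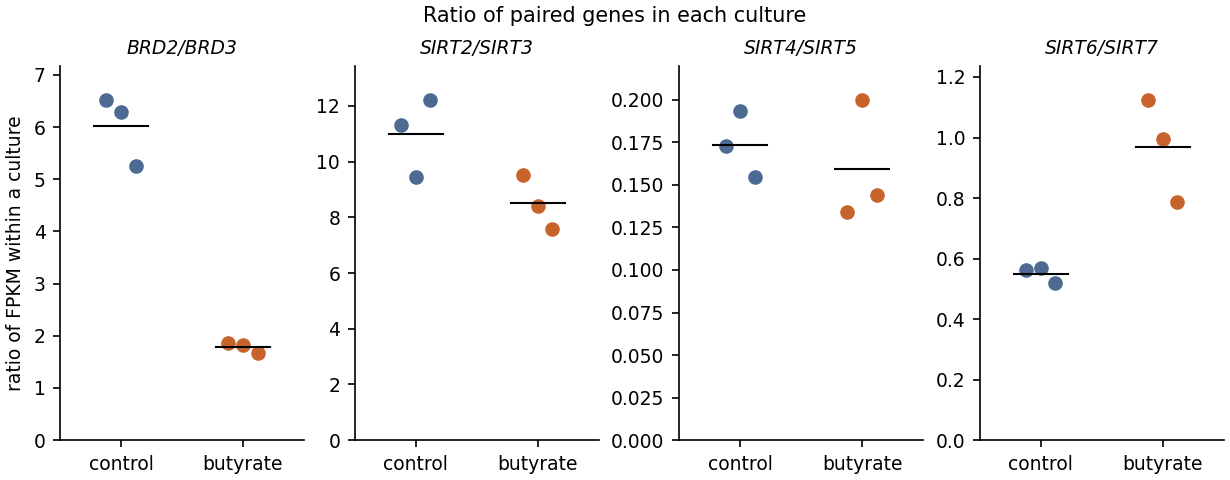
Ratio of the FPKM of paired genes within each culture, on linear axes that start at 0, for 3 control and 3 butyrate cultures with the group mean as a black line. BRD2 over BRD3 goes from between 5.25 and 6.51 to between 1.67 and 1.86, SIRT6 over SIRT7 also separates the groups, and the other pairs overlap.

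These changes reordered the 9 genes by level, where FPKM allows levels to be compared between genes per length. In control the order was BRD2, SIRT2, SIRT5, SIRT7, BRD3, SIRT6, SIRT3, SIRT4 and SIRT1, and the ranges of neighbours overlapped for SIRT7 and BRD3, SIRT3 and SIRT4, and SIRT4 and SIRT1. After butyrate SIRT2 came first, followed by BRD2, SIRT5, BRD3, SIRT7, SIRT6, SIRT3, SIRT4 and SIRT1. Neighbours that overlapped were then BRD2 and SIRT5, SIRT7 and SIRT6, and SIRT6 and SIRT3. SIRT1 was last in both groups, and after butyrate its range was clear of that of SIRT4. The 3 nuclear sirtuins summed to an FPKM of 24.7 ± 2.43 (SD, n = 3) in control and 30.0 ± 3.06 (SD, n = 3) after butyrate, in which SIRT6 rose and SIRT1 fell. The 3 mitochondrial sirtuins summed to 35.2 ± 3.63 (SD, n = 3) and 42.7 ± 3.41 (SD, n = 3). The groups overlapped in the nuclear sum, with control replicate 3 at 27.5 and butyrate replicate 3 at 26.7. They also overlapped in the mitochondrial sum, with control replicate 2 at 39.3 and butyrate replicate 2 at 38.9. All 7 sirtuins summed to 116 ± 8.42 (SD, n = 3) in control and 152 ± 2.95 (SD, n = 3) after butyrate, and the share of SIRT1 in this sum went from 3.76% ± 0.788 (SD, n = 3) to 1.35% ± 0.0878 (SD, n = 3). No test was made on these sums, since the genes were chosen with results of these data known.

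The genes around the members were read from the same tables, which give coordinates but no strand, and whether the libraries kept strand is not given in the sources used here. The row of BRD2 lies inside that of the MHC class II gene BOLA-DOA, from 7218684 to 7264259, which was listed at 0 in 4 cultures and at 0.431 and 0.328 in butyrate replicates 2 and 3. An unnamed locus inside SIRT1, LOC101902789, had an FPKM of at most 0.12. Both overlapping rows were therefore far below the gene they overlap. Within 1000 bases of SIRT6 lies CREB3L3, a transcription factor of lipid metabolism, at 750 bases. The mean FPKM of CREB3L3 was 0.231 ± 0.153 (SD, n = 3) in control against 6.70 ± 1.23 (SD, n = 3) after butyrate, and it rose by 4.48 on the log2 scale (limma, SE 0.38, Benjamini-Hochberg adjusted p = 1.54e-05). Of the neighbours of SIRT7, MAFG at 76 bases was called lower with a log2 fold change of -0.40 (limma, Benjamini-Hochberg adjusted p = 0.012), and PCYT2 at 277 bases had a log2 difference of -0.01 (limma, adjusted p = 0.931). RIC8A, at 696 bases from SIRT3, had a log2 difference of 0.16 (limma, adjusted p = 0.171), and NFKBIB, at 287 bases from SIRT2, one of 0.13 (limma, adjusted p = 0.219). RINL, at 92 bases from SIRT2, was called higher with a log2 fold change of 1.58 (limma, Benjamini-Hochberg adjusted p = 0.0164). It stayed at or below an FPKM of 0.325 in every culture, and with a control mean of 0.0212 was tested only because of its level after butyrate.

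Among the genes whose profile over the 6 cultures was most like that of SIRT6, by the root mean square difference of log2 values centred on the control mean, were MYO6 and BMP2K, with differences of 0.069 and 0.083. MYO6, for example, had an FPKM of 16.7, 16.0 and 16.8 in control and 32.7, 32.5 and 25.8 after butyrate, and like SIRT6 was lowest of the butyrate cultures in replicate 3. For BRD2 they were TRMT112, SNRPB and RCN2, with differences of 0.036, 0.038 and 0.041. SNRPB had an FPKM of 284, 297 and 315 in control and 134, 137 and 127 after butyrate. Such profiles were common among the 11025 named genes ranked, of which 335 lay within 0.2 of SIRT6 and 521 within 0.2 of BRD2.

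Sirtuins depend on NAD+, and most of the tested genes that make or consume it were called, as were 58.4% of all genes. Of 20 tested genes of NAD metabolism, 14 were called higher and 4 lower, which is 70% and 20% against 32.5% and 25.9% of all genes. Of the 14, NMRK2, HAAO and BST1 had a control mean FPKM under 0.1 and were tested only because of their level after butyrate. Without these 3, 11 of 17 genes were called higher and 4 lower, with a median log2 fold change of 1.03 against 0.10 for all genes. NAPRT, the enzyme that starts NAD+ synthesis from nicotinic acid, had an FPKM of 9.16, 9.13 and 10.9 in control and 97.4, 104 and 101 after butyrate, a 10.3-fold rise (limma, Benjamini-Hochberg adjusted p = 3.19e-08). NMRK2, a kinase of nicotinamide riboside, and HAAO, an enzyme of the route from tryptophan, were listed at 0 in every control culture and reached 1.18 to 2.15 and 0.700 to 1.1 after butyrate. NAMPT, which recycles nicotinamide, the product that sirtuins release, did not pass the test (log2 difference 0.32, limma, adjusted p = 0.137).

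NAD+ consumers other than the sirtuins were called in both directions. CD38 and SARM1, which are NAD+ hydrolases, had mean FPKM values of 0.178 ± 0.0702 (SD, n = 3) and 0.498 ± 0.185 (SD, n = 3) in control, and rose by 2.01 and 1.59 on the log2 scale. BST1, a relative of CD38, had FPKM values of 0.0431 to 0.139 in control and 1.02 to 1.12 after butyrate. PARP1, a DNA repair enzyme that consumes NAD+, fell by 0.59 on the log2 scale and had a mean FPKM of 40.9 ± 1.54 (SD, n = 3) in control against 27.2 ± 1.14 (SD, n = 3) after butyrate. NMNAT1, the nuclear enzyme of the last step to NAD+, fell by 0.53 and NADK, which turns NAD+ into NADP+, fell by 0.50. NMNAT2, a paralogue of NMNAT1, went the other way and rose by 2.58 (limma, SE 0.19, Benjamini-Hochberg adjusted p = 7.34e-06). Its mean FPKM was 2.12 ± 0.594 (SD, n = 3) in control and 12.9 ± 1.41 (SD, n = 3) after butyrate.

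Of 18 tested regulators and partners of sirtuins, 4 were called higher and 4 lower, which is 22.2% in each direction against 32.5% and 25.9% of all genes. Their median log2 fold change was 0.13 without rescaling. The counts were 5 and 2 when each culture was rescaled to the same total (TPM), where 37.5% of all genes were called higher and 21.4% lower. CCAR2, a protein that binds and inhibits SIRT1, fell as SIRT1 itself did, by 0.61 on the log2 scale (limma, SE 0.08, Benjamini-Hochberg adjusted p = 0.000156), with an FPKM of 46.8, 42.9 and 42.7 in control and 26.4, 29.6 and 30.8 after butyrate. The nuclear receptor gene NR1H2 fell by 0.28. The deacetylated transcription factors FOXO1 and HIF1A rose by 0.68 and 0.53, and the receptor gene NR1H3 by 0.73.

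Most of the tested substrates of the mitochondrial sirtuins were lower. Of 17 tested genes, 3 were called higher and 11 lower, or 64.7% lower against 25.9% of all genes, with a median log2 fold change of -0.46. With quantile normalization 5 were higher and 10 lower. DLAT, the lipoamide-bearing subunit of pyruvate dehydrogenase, fell by 1.05, IDH2, the matrix isocitrate dehydrogenase, fell by 1.02, and NDUFA9, a subunit of respiratory complex I, fell by 1.00. IDH2 had an FPKM of 173, 167 and 174 in control and 84.8, 81.7 and 87.4 after butyrate, while SIRT3, which acts on its product, rose. The very long-chain acyl-CoA dehydrogenase gene ACADVL rose by 0.77, the mitochondrial acetyl-CoA synthetase gene ACSS1 by 1.77 and the glutamate dehydrogenase gene GLUD1 by 0.25.

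Other genes with a bromodomain, and genes with a YEATS domain, were compared with the BET genes. Of 28 tested bromodomain genes outside the BET family, 2 were called higher and 11 lower, which is 7.14% and 39.3% against 32.5% and 25.9% of all genes, with a median log2 fold change of -0.40. ATAD2, an AAA+ ATPase with a bromodomain, had an FPKM of 29.1, 32.8 and 27.5 in control and 10.7, 12.4 and 11.4 after butyrate and fell by 1.37 on the log2 scale. BRD9 and SMARCA4, subunits of SWI/SNF remodelling complexes, fell by 1.08 and 0.90, whereas SMARCA2, the alternative ATPase of that complex, rose by 0.40 and TRIM24 rose by 0.52. With quantile normalization, which lowers the median of all genes, 1 was called higher and 18 lower. Of the 4 YEATS genes, MLLT3 rose by 1.21 and YEATS4 fell by 0.70, and the others did not pass the test.

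Of 28 tested partners of BET proteins in transcription elongation, 5 were called higher and 8 lower, which is 17.9% and 28.6% against 32.5% and 25.9% of all genes. Their median log2 fold change was -0.04 without rescaling. The counts were 11 and 8 when rescaled to TPM, against 37.5% of all genes called higher and 21.4% lower. CDK9, the kinase of the elongation factor P-TEFb, rose by 0.41 from an FPKM of 81.6 to 83.5 in control to 106 to 112 after butyrate. LARP7, a protein of the inhibitory 7SK particle that holds P-TEFb, fell by 1.13, and JMJD6, a BET partner, fell by 1.03. The gene of the large RNA polymerase II subunit, POLR2A, fell by 0.95, but it is uncertain, since the tables hold a second row of that name, with a log2 difference of -0.59 that did not pass the test (limma, adjusted p = 0.0812), and reads can be split between rows. EAF2 and ELL3, both of low level, rose by 1.14 and 1.53. HEXIM1, the inhibitor of P-TEFb, was at 10.9 to 13.7 in control and 13.5 to 17.6 after butyrate, a log2 fold change of 0.37 (limma, Benjamini-Hochberg adjusted p = 0.0378) with groups that overlapped.

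**Figure D5:**
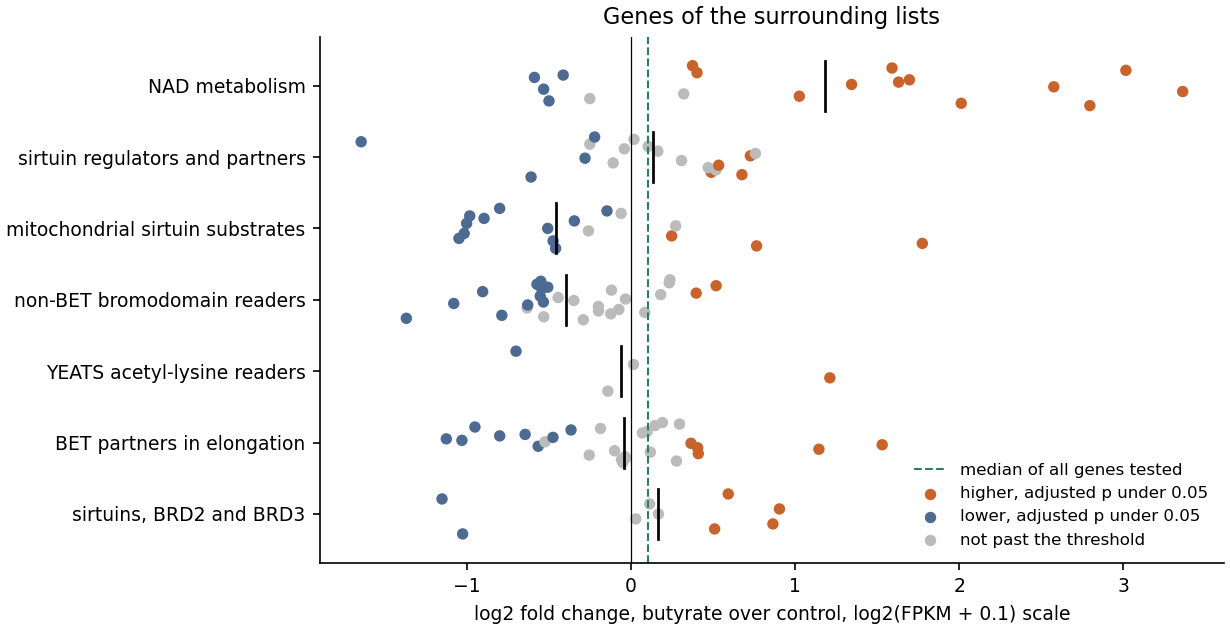
Log2 fold change of butyrate over control for the tested genes of 6 lists around sirtuins and BET readers and for the 9 genes themselves, coloured by call, with the median of the plotted genes as a black bar, and without the 2 genes listed at 0 in control. NAD metabolism genes lie mostly above 0, with a median of 1.18. That median includes BST1, which was tested only because of its level after butyrate, and is 1.03 without it. Mitochondrial sirtuin substrates and non-BET bromodomain genes lie mostly below 0, with medians of -0.46 and -0.40.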

How the data were processed

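RNA from 6 cultures was sequenced as paired-end reads. The authors trimmed reads with Trim Galore 0.4.1, aligned them with STAR, kept uniquely mapped reads and deposited FPKM per gene, made with Cufflinks, together with confidence bounds. The submitters' processing notes name UMD3.1, whose coordinates are given as listed. Chromosomes were assigned by the chromosome that most genes of a sequence have in the table of RefSeq genes for assembly ARS-UCD2.0. Counts were not used, so the depth behind a value is known only through its bounds, which lay between 5.35% and 33.1% to either side for the 9 genes.

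Rows were joined by position, and 2 rows with a failed estimate were left out. Genes were kept where the mean FPKM reached 0.1, which left 15813, and log2(FPKM + 0.1) was tested with limma 3.58.1 (R 4.3.3) and its variance trend. This scale understates changes of low genes. Ratios of pairs were tested with exact permutation tests (scipy 1.17.1). The fit was also run on simulated data with normal noise and few genes changed. That setting differs from these data, in which 58.4% of genes were called, so the run cannot tell how well the fit works here.

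The members, the lists and the tests were chosen with earlier results of these data known. Besides the members and markers, the text names up to 3 called genes per list and direction with the largest change, and the 3 nearest profiles of the genes with the largest rise and fall. NAMPT, NMNAT2, CD38, SARM1, BST1, HEXIM1 and the neighbouring genes were named after their values were seen. List genes were matched by symbol or RefSeq synonym, and a name on several rows was taken at its highest mean. Alternatives were other pseudocounts, filters, scalings and thresholds, no trend, a replicate block and each culture left out. Some genes that this rule names are not reported here. No sequences are shown.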

Additional observations from a re-analysis of the deposited data

How the results depend on the processing

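The calls of BRD2, SIRT1, SIRT2, SIRT3, SIRT6 and BRD3 held under every pseudocount, filter, scaling, trend, block and left-out culture that was run, and under Bonferroni correction SIRT1 (-1.03), SIRT2 (0.51), SIRT3 (0.86), SIRT6 (0.90) and BRD3 (0.59) no longer passed, so 0 of the 9 genes were called higher and 1 lower. Of the 9 genes, 1 was a differentially expressed gene with a log2 fold change beyond 1, and 1 with Bonferroni correction and no minimum fold change, BRD2 in each case. SIRT4 was -0.11 by quantile normalization and -0.0093 by median of ratios scaling, and ranged from -0.078 to 0.16 with a culture left out, being lowest without control replicate 3 and also below 0 without butyrate replicate 2. SIRT5 passed at 0.29 after rescaling to TPM. Leaving out a culture gave 0.10 to 0.27 for SIRT5, which passed without butyrate replicate 2. Rescaling to TPM moved the median log2 change of all genes by 0.12 and quantile normalization by -0.15. The difference between butyrate and control in the log2 ratio of BRD2 over BRD3 was between -1.84 and -1.68 with a culture left out.

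For the lists, whose alternatives were chosen after seeing the data, quantile normalization gave 5 mitochondrial substrates higher, and 1 bromodomain gene higher and 18 lower. TPM gave 11 elongation partners higher and 2 sirtuin regulators lower. With a culture left out, 1 to 2 bromodomain genes were higher, with 1 without control replicate 1, butyrate replicate 1 or butyrate replicate 2. Of 462 values for the 31 list genes that the naming rule gives, 10 lost their call and none reversed. TRIM24 lost it by quantile normalization and without control replicate 1, butyrate replicate 1 or butyrate replicate 2 (0.45 to 0.47). GLUD1 lost it without the trend and without control replicate 1 or 2 (0.24 in each), ELL3 by quantile normalization and without butyrate replicate 2 (1.42), and NR1H2 by TPM (-0.16).

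With the replicate number as a block, 4 of the 9 genes were called higher and 2 lower, and no call changed. No pairing by number was visible in the values. Same-numbered cultures correlated at 0.0228, -0.0043 and 0.0018 in their deviations, and 2 of 6 correlated best with their own number. Such correlations cannot tell whether the cultures were handled in pairs. SIRT4 had the widest deposited bounds of the 9 genes, and depth in reads is unknown.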
